A study of Mus musculus with 10 samples.

Results

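Monocytes and macrophages of the heart were followed through 29 genes that mark them, read in the ventricles of male mice with no treatment or with aldosterone for 7 days, both groups carrying the label Ctrl. The genes were taken by name, and every probe was used whose accession belongs to one of these symbols in RefSeq. A total of 28 genes had a probe, 35 probes in all, and 27 genes passed the filter on dim probes among 22016 genes or transcripts tested. Cd68 was not matched to a probe through the RefSeq records and has no array values here, though its promoter was searched for a motif. Spi1, which encodes the myeloid transcription factor PU.1, was well above background in the heart channel on 1 of 9 arrays and was not tested. Passing required a Cy5 signal well above background on at least 4 arrays, without regard to group. Each of 10 hearts, 5 per group and each labelled as its own mouse, gave Cy5-labelled RNA that shared a 2-colour Agilent array with a Cy3 reference pooled from liver, brain, heart, kidney and spleen. The scans of 9 arrays were used, 5 of controls and 4 of aldosterone hearts, and aldosterone 4 entered through the authors' deposited value table. Strain, age, dose and route are not given in the sources used here.

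Aldosterone, a hormone of the adrenal cortex, binds the mineralocorticoid receptor, which macrophages carry as well as heart muscle cells. The healthy heart holds resident macrophages that renew themselves in place, and monocytes from the blood can enter and become macrophages when the tissue is injured. Resident cells are known for Lyve1, Folr2, Mrc1 and Cd163, and recruited cells for the chemokine receptor gene Ccr2. Csf1r signalling keeps macrophages alive, and PU.1 drives much of their gene programme. In pieces of whole ventricle, fewer macrophages and less RNA per macrophage cannot be told apart.

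Promoter windows of 300 bases around the gene start were given by RefSeq (GRCm38.p6) for 21 of the 29 genes. The core letters of the PU.1 motif, GAGGAA, were searched on both strands. They were found in 14 of these 21 genes (66.7%), against 31.3% of all 27025 genes in the table with windows of the same length. Windows are shown for C1qb and C1qc, neighbouring genes that were both highest in control 2 and lowest in control 4. They are also shown for the resident marker Mrc1 and for Itgam, whose brightest probe did not follow the other genes. They lie at chr4:136886151-136886450, minus strand (C1qb), chr4:136892865-136893164, minus strand (C1qc), chr2:14229164-14229463, plus strand (Mrc1) and chr7:128062390-128062689, plus strand (Itgam). Capitals mark the motif on either strand, and a match is a description of letters, not a bound site.
C1qb: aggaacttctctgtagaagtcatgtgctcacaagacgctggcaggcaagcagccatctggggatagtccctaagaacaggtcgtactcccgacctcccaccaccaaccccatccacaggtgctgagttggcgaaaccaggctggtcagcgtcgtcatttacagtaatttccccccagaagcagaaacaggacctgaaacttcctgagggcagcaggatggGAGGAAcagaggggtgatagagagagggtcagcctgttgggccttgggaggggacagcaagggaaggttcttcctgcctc
C1qc: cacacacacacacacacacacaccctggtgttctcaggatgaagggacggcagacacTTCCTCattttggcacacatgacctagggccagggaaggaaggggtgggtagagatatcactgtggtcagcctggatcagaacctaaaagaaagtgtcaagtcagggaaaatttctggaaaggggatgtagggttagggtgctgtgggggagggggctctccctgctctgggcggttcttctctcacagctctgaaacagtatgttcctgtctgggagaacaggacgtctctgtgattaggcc
Mrc1: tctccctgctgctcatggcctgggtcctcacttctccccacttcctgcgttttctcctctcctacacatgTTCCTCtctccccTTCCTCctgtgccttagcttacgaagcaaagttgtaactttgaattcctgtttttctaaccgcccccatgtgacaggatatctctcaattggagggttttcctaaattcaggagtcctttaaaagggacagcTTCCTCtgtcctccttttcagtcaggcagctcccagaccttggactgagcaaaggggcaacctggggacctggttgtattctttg
Itgam: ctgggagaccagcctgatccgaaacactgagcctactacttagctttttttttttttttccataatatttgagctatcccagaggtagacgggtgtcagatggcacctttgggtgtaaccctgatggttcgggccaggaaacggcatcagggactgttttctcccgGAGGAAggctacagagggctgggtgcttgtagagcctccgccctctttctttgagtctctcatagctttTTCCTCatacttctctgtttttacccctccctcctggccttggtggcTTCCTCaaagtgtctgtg
Mrc1 and Itgam each held 3 matches and C1qb and C1qc each held 1. The windows shown all hold the motif, while those of the resident markers Folr2 and Cd163 and of the recruited marker Ccr2 held 0 matches. The number of matches was not tested against the array values.

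Values are log2 ratios of heart over reference after background correction and loess normalization, and differences are aldosterone minus control. Between 64.3% and 70.9% of an array's probes had a Cy5 signal well above background, the median Cy5 signal was 114.5 to 139 units, and the local background was 57 to 59 units. Arrays correlated at 0.964 to 0.990 over all genes, and no array duplicated another. All 8 cardiomyocyte markers of the labelled tissue were measured, and their mean ratio lay between 1.21 and 1.63 on each array. Control and aldosterone arrays shared each of 4 slides, each scanned at 1 time, and position on the slide cannot be told apart from group. After group means were removed, the first component of all genes held 38.5% of the variance, with controls 2 and 5 and aldosterone 1 and 2 on one side and the other 5 arrays on the opposite side.

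Control 2 stood apart for these genes. It had the highest ratio of the 9 arrays in 19 of the 27 genes, against 13.4% of all genes tested. Control 4 had the lowest ratio in 19 of the 27, against 8.98% of all genes. The median of the 27 genes, each relative to its control mean, was -0.10, 0.58, -0.20, -0.33 and 0.05 in controls 1 to 5 and 0.07, 0.30, 0.02 and 0.10 in aldosterone 1, 2, 3 and 5. Over all genes the same median stayed between -0.03 and 0.03 on each array. The untreated hearts therefore spanned the range of the aldosterone hearts. With aldosterone 4 present, in the value table, control 2 was at 0.63, aldosterone 4 at 0.42 and aldosterone 2 at 0.40, and control 4 was lowest at -0.41. Differences are given below with control 2 and, for each of the 27 genes, without it.

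**Figure D1:**
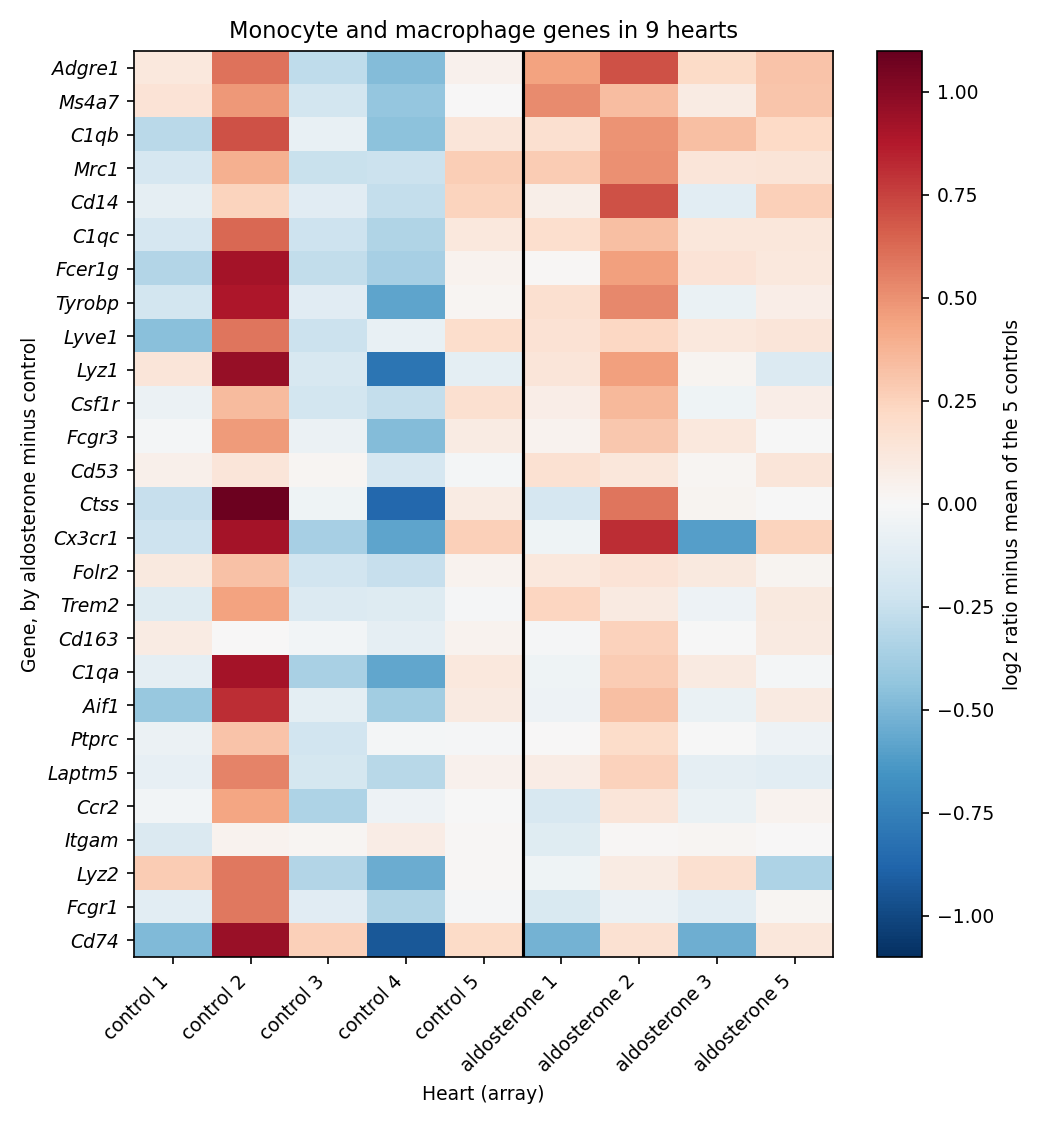
Heat map of the 27 measured monocyte and macrophage genes (rows) on 9 arrays (columns), as log2 ratio minus the mean of the 5 controls, with controls left of the black line. Control 2 is the reddest column, with a median of 0.58, and control 4 the bluest, with a median of -0.33.

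**Figure D2:**
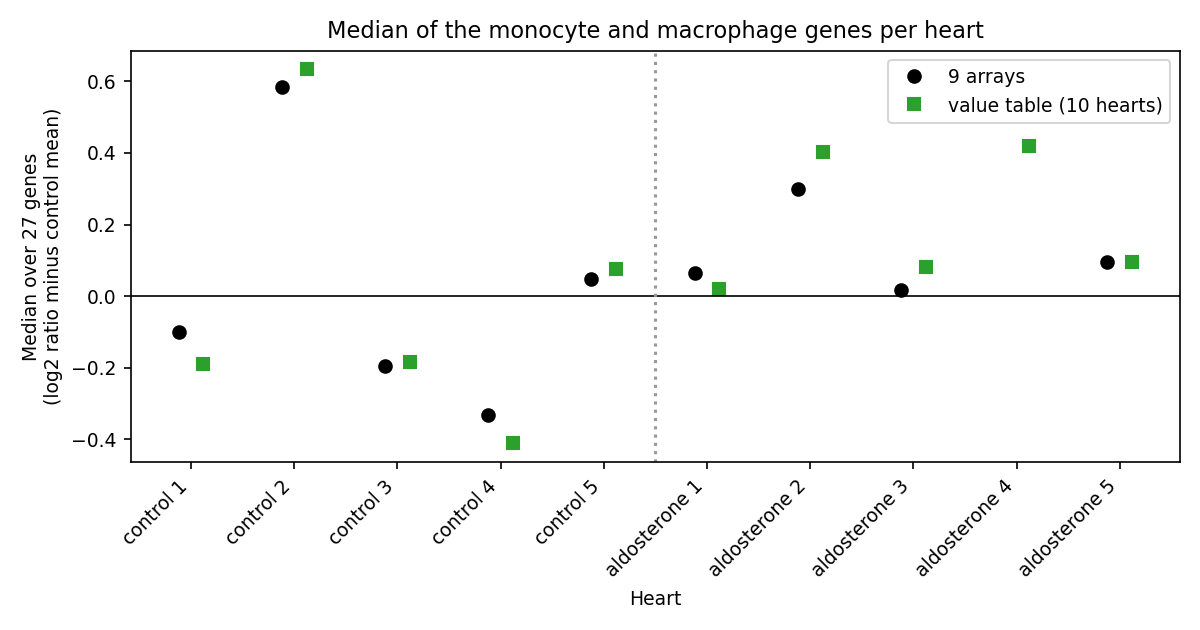
Median of the 27 genes in each heart, as log2 ratio minus the control mean, for the 9 normalized arrays (circles) and the authors' value table of 10 hearts (squares). Control 2 lies highest in both, and control 4 lowest.

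No gene of the group passed the test of aldosterone against no treatment. In limma, 0 of 27 had an adjusted p under 0.05 (0% of all genes), and the smallest adjusted p among them was 0.805. At an unadjusted p under 0.05 there were 0 of 27, against 6.2% of all genes (4.17% higher and 2.03% lower). The differences were above 0 in 22 genes and below 0 in 5, where 52.3% of all genes were above 0. Their median was 0.11, against 0.01 over all genes, and they ran from -0.19 (Cd74) to 0.42 (Adgre1). Groups overlapped in all 27 genes, where 1.47% of all genes were higher without overlap. In the value table of 10 hearts 0 of 27 passed in limma (0.168% of all genes). There 2 of 27, Adgre1 and Cd53, were higher at an unadjusted p under 0.05 and 0 lower, where 8.08% of all genes reached it, 4.88% higher and 3.2% lower. Differences there were above 0 in 24 of 27 (49.9% of all genes), the median was 0.21, and 0 of 27 were higher without overlap (1.35% of all genes).

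Without control 2 the median of the 27 genes was 0.28 on the arrays and 0.39 in the value table. Leaving out a high control lowers the control mean by construction, and control 2 was singled out after its values were seen. On the arrays 26 of 27 were then above 0 (53.4% of all genes). At an unadjusted p under 0.05 there were 9 of 27 higher and 0 lower, where 6.7% of all genes reached it, 4.82% higher and 1.88% lower. The value table then had 27 of 27 above 0 (50.3% of all genes), and 13 of 27 were higher and 0 lower at that p, where 9.07% of all genes reached it, 5.79% higher and 3.27% lower. Adjustment in limma left 0 of 27 on the arrays (0% of all genes) and 0 of 27 in the value table (0.0182% of all genes), with smallest adjusted p of 0.363 and 0.228 among the 27. The 9 genes were Adgre1, C1qb, C1qc, Fcer1g, Lyve1, Mrc1, Ms4a7, Trem2 and Tyrobp. The median over all 27 genes also rested on other hearts, and was 0.03 without the low control 4, 0.03 without aldosterone 2, the highest aldosterone array, and 0.07 without control 3.

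The difference also varied between slides. On slides 2 and 3 it was above 0 in 25 and 24 of the 27 genes, with medians of 0.47 and 0.36, where 58.1% and 47.5% of all genes were above 0. On slides 1 and 4 it was above 0 in 6 and 12, with medians of -0.12 and -0.01, against 55.5% and 46.7% of all genes. Slide 1 holds control 2, and slide 3 holds control 4. With slide as a block the median was 0.13, and no gene passed.

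**Figure D3:**
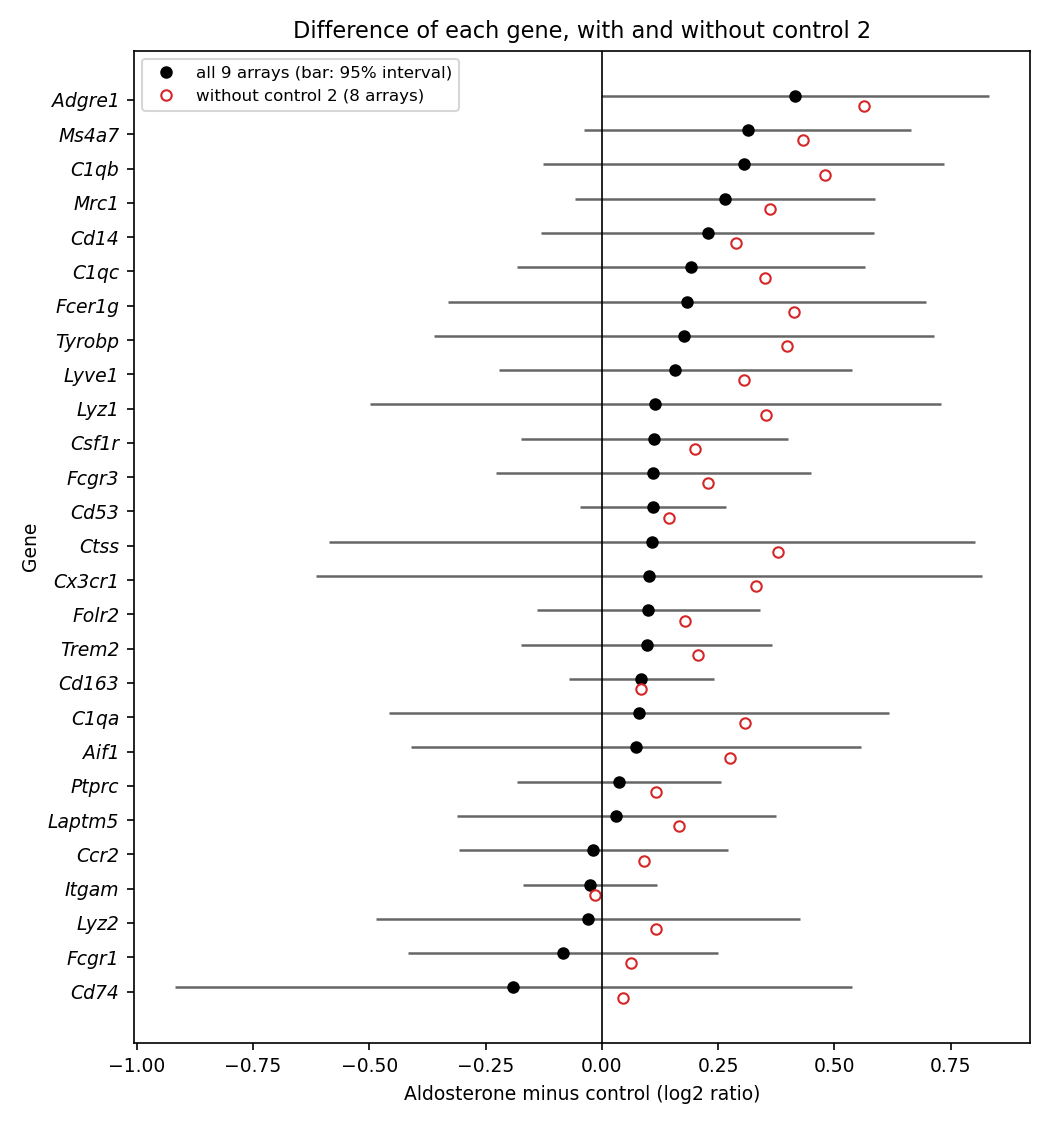
Aldosterone minus control of each of the 27 genes on the log2 scale, over all 9 arrays (filled circles, bars are 95% intervals) and without control 2 (open circles). The interval of each gene includes 0, and the open circle lies right of or beside the filled one in each row.

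The 4 resident markers were each higher on average in the aldosterone group, with that average inside the range of the controls. Aldosterone 2 lay above each control in Mrc1 and Cd163. The sign of Cd163 turned in 2 alternatives, to -0.10 with the Cy5 channel alone and -0.01 with no background subtraction. Mrc1, the mannose receptor gene, was at -0.63, -0.06, -0.69, -0.69 and -0.18 in controls 1 to 5 and at -0.17, 0.05, -0.32 and -0.31 in aldosterone 1, 2, 3 and 5. Controls 1, 3 and 4 lay below each aldosterone heart, and controls 2 and 5 lay among them. It differed by 0.26 (SE 0.15, unadjusted p = 0.099, adjusted p = 0.893 in limma), and by 0.33 (SE 0.15) in the value table and 0.36 without control 2. Its difference was -0.13 on slide 4 and above 0 on the other slides.

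Lyve1, a hyaluronan receptor gene that lymphatic vessels also express, was at 1.02, 2.07, 1.24, 1.40 and 1.67 in controls 1 to 5. The aldosterone hearts 1, 2, 3 and 5 were at 1.64, 1.71, 1.59 and 1.61. Their SD was 0.05, against 0.40 in controls, and the controls reached both below and above them. The difference was 0.16 (SE 0.17), and 0.30 (SE 0.12) without control 2.

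Folr2, which encodes a folate receptor, was at 0.32, 0.53, 0.00, -0.04 and 0.26 in controls 1 to 5 and at 0.33, 0.37, 0.32 and 0.24 in aldosterone 1, 2, 3 and 5. Controls 3 and 4 were low and control 2 was the highest heart, so the groups overlapped. The difference was 0.10 (SE 0.11), and 0.18 without control 2.

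Cd163, the scavenger receptor gene for haemoglobin bound to haptoglobin, was dim, with Cy5 signals of 88 to 112 units, and its Cy3 signal was above background on 0 arrays. It was at 0.44, 0.34, 0.31, 0.24 and 0.39 in controls 1 to 5 and at 0.33, 0.60, 0.34 and 0.45 in aldosterone 1, 2, 3 and 5. Aldosterone 2 was highest and the other hearts were mixed. The difference was 0.09 (SE 0.07), 0.09 without control 2, and 0.32 (SE 0.17) in the value table. The offset of 50 units in the background correction draws ratios of dim probes toward 0.

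The recruited marker Ccr2, the receptor through which monocytes leave the bone marrow, was near the limit of detection in the ventricle. Its Cy5 signal was 68 to 122 units, and it was well above background on 4 arrays of controls and on 2 of aldosterone hearts. It was at -1.49, -1.02, -1.79, -1.52 and -1.47 in controls 1 to 5 and at -1.64, -1.32, -1.53 and -1.42 in aldosterone 1, 2, 3 and 5. Control 2 was highest, control 3 lowest, and the aldosterone hearts lay between. The difference was -0.02 (SE 0.13, 95% interval -0.31 to 0.27), and it turned to 0.09 without control 2. The value table gave -0.04 (SE 0.65).

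The median difference of the 4 resident markers was 0.13 and that of Ccr2 was -0.02, and without control 2 they were 0.24 and 0.09. Whether they differ was not tested. Among other resident markers, 10 of 12 tested were higher and 2 lower, with a median of 0.11, or 0.22 without control 2, and none past adjustment. Pf4, a platelet chemokine gene that resident macrophages share, differed by 0.49 (SE 0.22), the growth factor genes Gas6 and Igf1 by 0.15 (SE 0.08) and 0.20 (SE 0.11). Of the other recruited markers, 9 of 10 were tested, 7 were higher and 2 lower, with a median of 0.04, or 0.06 without control 2, and none past adjustment. Chil3, a chitinase-like protein gene, differed by 0.26 (SE 0.13), the fibronectin gene Fn1 by 0.26 (SE 0.15) and Ms4a4c by -0.07 (SE 0.08).

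**Figure D4:**
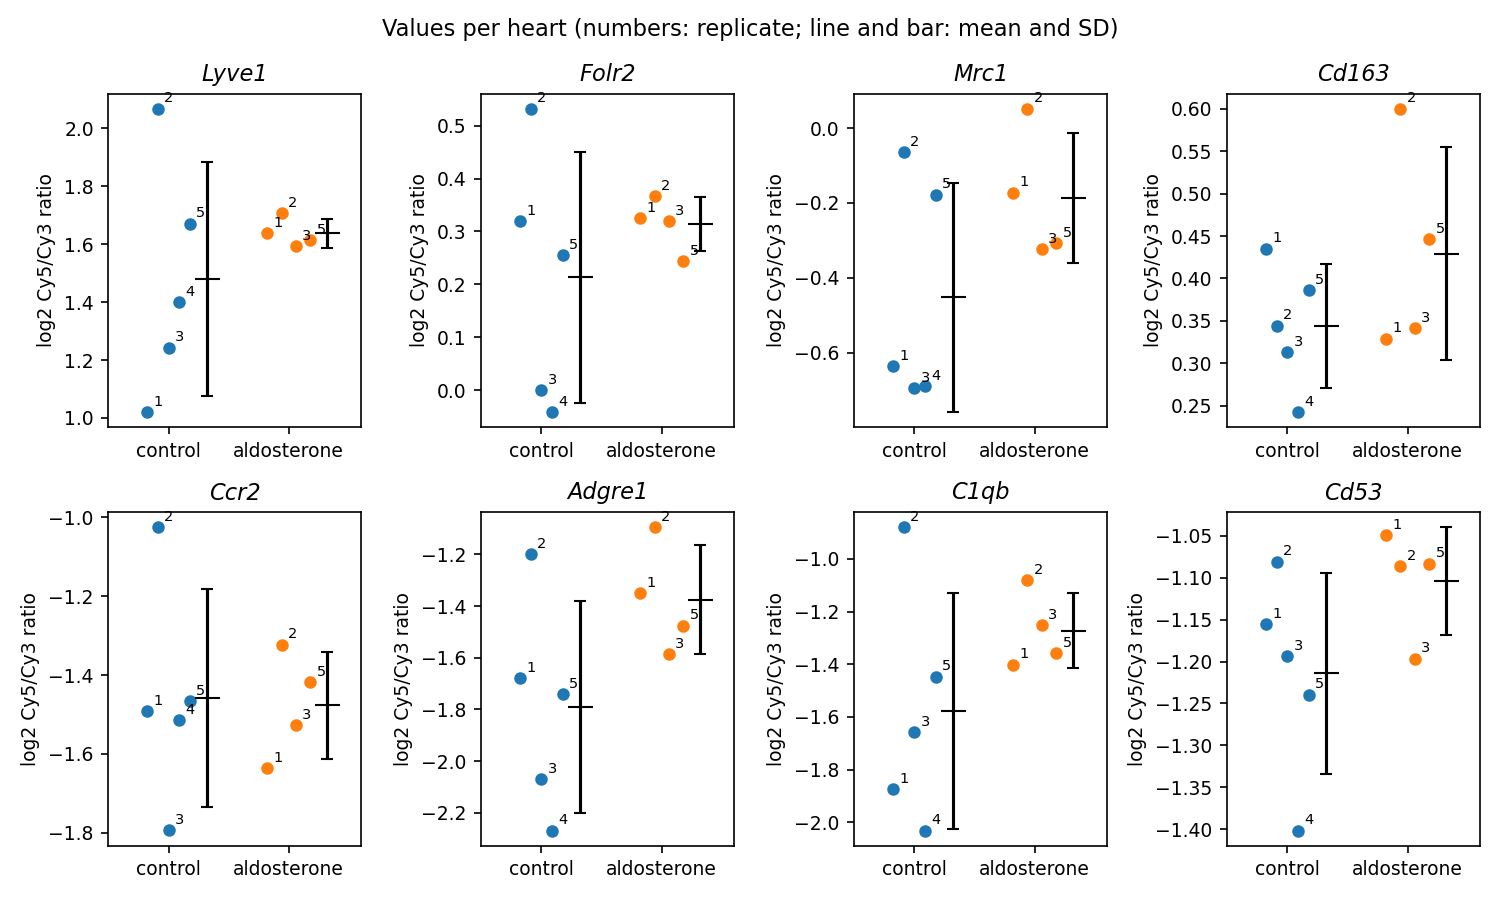
Log2 ratio of heart over reference for the 4 resident markers, the recruited marker Ccr2, and Adgre1, C1qb and Cd53, in 5 control and 4 aldosterone arrays. Points carry the replicate number and bars show mean and SD, and the controls spread more widely than the aldosterone hearts for Lyve1, with an SD of 0.40 against 0.05.

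Adgre1, an adhesion receptor gene that marks mouse macrophages, had the largest difference of the group. It was at -1.68, -1.20, -2.07, -2.27 and -1.74 in controls 1 to 5 and at -1.35, -1.09, -1.58 and -1.48 in aldosterone 1, 2, 3 and 5. Each aldosterone heart lay above controls 1, 3, 4 and 5, and control 2 lay above all of them but aldosterone 2. The difference was 0.42 (SE 0.19, unadjusted p = 0.0504, adjusted p = 0.805 in limma), or 1.33-fold, and 0.56 without control 2. It was above 0 on each slide, from 0.09 to 0.98. The value table gave 0.55 (SE 0.23, unadjusted p = 0.0387, adjusted p = 0.585 in limma), with aldosterone 4 at -0.80 beside -0.80 in aldosterone 2. A second probe gave 0.20 on the arrays and 0.46 in the value table.

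Csf1r, the receptor gene for the growth factor of macrophages, had 3 probes. The brightest was at -2.05, -1.64, -2.19, -2.25 and -1.81 in controls 1 to 5 and at -1.92, -1.63, -2.04 and -1.91 in aldosterone 1, 2, 3 and 5. The groups overlapped, and the difference was 0.11 (SE 0.13), or 0.20 without control 2. Another probe gave 0.06 and showed the same high controls 2 and 5. The remaining probe was at -0.00, 0.01, 0.01, 0.06 and 0.09 in controls 1 to 5 and at -0.03, -0.05, -0.09 and -0.28 in aldosterone 1, 2, 3 and 5. There each aldosterone heart was below each control, by -0.15 on average (SE 0.06, unadjusted p = 0.0412, adjusted p = 0.805 over all probes in limma). In the value table its difference was -0.14, and the groups overlapped, with aldosterone 2 at 0.39 and aldosterone 4 at 0.43 above control 2 at 0.37. The probes of Csf1r thus disagreed in sign, and that probe did not show control 2 as high.

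Ms4a7, a membrane protein gene of macrophages, was at -0.64, -0.32, -0.99, -1.22 and -0.79 in controls 1 to 5 and at -0.27, -0.45, -0.70 and -0.49 in aldosterone 1, 2, 3 and 5. Controls 3, 4 and 5 lay below each aldosterone heart. The difference was 0.31 (SE 0.16, unadjusted p = 0.0756, adjusted p = 0.868 in limma) and was above 0 on each slide. It was 0.43 without control 2, and 0.38 (SE 0.09) when blocked by slide.

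The other surface and lineage genes had smaller differences against their spread. Cd14, a co-receptor gene for bacterial lipopolysaccharide, differed by 0.23 (SE 0.16), or 0.29 without control 2, and aldosterone 2 was its highest heart at -1.25. Trem2, a lipid-sensing receptor gene, differed by 0.10 (SE 0.12), Aif1, which encodes an actin-binding protein, by 0.07 (SE 0.22), and the fractalkine receptor gene Cx3cr1 by 0.10 (SE 0.32). Without control 2 these were 0.21 for Trem2, 0.28 for Aif1 and 0.33 for Cx3cr1. Cx3cr1 ran from -3.67 to -2.17 in controls and from -3.69 to -2.28 with aldosterone, so both groups held high and low hearts. Itgam, an integrin chain gene of myeloid cells, ran from 0.80 to 1.04 in controls and from 0.83 to 0.98 with aldosterone. It differed by -0.02 (SE 0.07, 95% interval -0.17 to 0.12), or -0.01 without control 2, and control 2 was not its highest heart on the probe used. Its 3 probes gave -0.02, 0.10 and -0.01. The probe used had Cy5 signals of 21689 to 36020.5 units, with none saturated, against 113 to 204 units for the other probes. Whether so bright a probe measures Itgam alone was not tested, so its narrow interval may not hold for the gene. On the dim probe that gave -0.01, control 2 was the highest heart, at -0.01 on the arrays and 0.28 in the value table. On the dim probe that gave 0.10 it was not.

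Among Fc receptors and their signalling adaptors, 3 of 4 were higher and 1 lower, and control 2 was the highest heart in each. Fcer1g, the adaptor chain gene of the activating receptors, ran from -2.45 to -1.16 in controls and from -2.06 to -1.63 with aldosterone, a difference of 0.18 (SE 0.23). Without control 2 the highest control was -2.04 and the difference 0.41 (SE 0.11, adjusted p = 0.424 in limma). Tyrobp, the adaptor gene through which Trem2 signals, differed by 0.18 (SE 0.24), and by 0.40 (SE 0.15) without control 2. The IgG receptor genes Fcgr3 and Fcgr1 differed by 0.11 (SE 0.15) and -0.08 (SE 0.15). Without control 2 Fcgr3 differed by 0.23, and Fcgr1 turned to 0.06.

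The 3 complement C1q chains, which together form the recognition protein of the classical pathway and are made largely by macrophages, were each highest in control 2 and lowest in control 4. C1qb was at -1.88, -0.88, -1.66, -2.03 and -1.45 in controls 1 to 5 and at -1.40, -1.08, -1.25 and -1.36 in aldosterone 1, 2, 3 and 5. Each aldosterone heart lay above each control but control 2, which was the highest of the 9. The difference was 0.30 (SE 0.20, adjusted p = 0.943 in limma), and 0.48 (SE 0.12, adjusted p = 0.370) without control 2. C1qc differed by 0.19 (SE 0.17), and by 0.35 (SE 0.10, adjusted p = 0.435) without control 2, and C1qa by 0.08 (SE 0.24), or 0.31 without control 2. Once control 2 was left out, groups did not overlap in 3 genes, C1qb, C1qc and Adgre1, against 2.46% of all genes in that direction. The value table had 5 such genes, adding Cd53 and Trem2, against 2.3% of all genes. As control 2 was singled out for being high in the members, such separation is favoured by that choice. The shares over all genes carry no such choice. On the arrays the second Adgre1 probe still overlapped, with control 1 at -1.46 above aldosterone 3 at -1.51.

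Control 2 was the highest heart for each of the 4 lysosomal and lysozyme genes, of which 3 were higher with aldosterone on average and 1 lower. Ctss, the protease gene that trims the invariant chain of antigen presentation, ran from -3.98 in control 4 to -2.03 in control 2, and from -3.30 to -2.52 with aldosterone. Its difference was 0.11 (SE 0.31, 95% interval -0.59 to 0.80), and 0.38 without control 2. The lysozyme genes Lyz1 and Lyz2 differed by 0.11 (SE 0.28) and -0.03 (SE 0.21), and as close copies their probes may share signal. Laptm5, a lysosomal membrane protein gene of blood cells, differed by 0.03 (SE 0.16). Without control 2 the values were 0.35 for Lyz1, 0.17 for Laptm5 and 0.12 for Lyz2, whose sign turned.

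Among the leukocyte genes, Ptprc, the phosphatase gene common to white blood cells, was at -1.78, -1.39, -1.92, -1.74 and -1.73 in controls 1 to 5 and at -1.70, -1.51, -1.71 and -1.76 in aldosterone 1, 2, 3 and 5. Control 2 was highest and the difference was 0.04 (SE 0.10), or 0.12 without control 2. The tetraspanin gene Cd53 was dim, at 73 to 94 Cy5 units, and at -1.16, -1.08, -1.19, -1.40 and -1.24 in controls 1 to 5. Aldosterone 1, 2, 3 and 5 were at -1.05, -1.09, -1.20 and -1.08, a difference of 0.11 (SE 0.07), or 0.14 without control 2. Its value table ratios were -2.98, -2.20, -2.77, -3.06 and -2.94 in controls and -2.56, -1.96, -2.59, -1.98 and -2.42 in aldosterone 1 to 5. There it differed by 0.49 (SE 0.19, unadjusted p = 0.0296, adjusted p = 0.549 in limma), and control 2 was the one control within the aldosterone range. Cd74, the invariant chain gene, ran from -4.15 to -2.27 in controls and from -3.75 to -3.05 with aldosterone, and differed by -0.19 (SE 0.33). Without control 2 its sign turned, to 0.05.

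Of the class II genes that Cd74 serves, 1 of 6 was higher and 5 were lower, with a median of -0.08. Control 2 was their highest heart in 5 of 6, and without it the median was 0.11. H2-Aa differed by 0.45 (SE 0.32), Ciita, their activator, by -0.13 (SE 0.12) and H2-Eb1 by -0.22 (SE 0.28). None passed adjustment.

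Other macrophage genes were split, with 16 of 28 tested higher, 12 lower and a median of 0.04, or 0.09 without control 2, which was highest in 15. None passed adjustment, and the 3 of smallest p on the arrays were Plek, Lgals3 and Cd52. Plek, a substrate of protein kinase C, was at 0.30 (SE 0.15), the galectin gene Lgals3 at 0.32 (SE 0.18) and Cd52 at 0.26 (SE 0.15). In the value table P2ry12 had the smallest p, at 0.60 (SE 0.18, unadjusted p = 0.00808, adjusted p = 0.384 in limma). On the arrays P2ry12 was at 0.09 (SE 0.06). Growth factors and chemokines that act on these cells had 6 of 10 tested higher and 4 lower, with a median of 0.05. Control 2 was highest in 7 of the 10, and without it the median was 0.21. Cx3cl1, the ligand of Cx3cr1, differed by 0.29 (SE 0.08, adjusted p = 0.487 in limma), Csf1 by 0.15 (SE 0.20) and Ccl2, the ligand of Ccr2, by 0.11 (SE 0.14). Of 13 activation genes 9 were tested, 6 higher and 3 lower, with a median of 0.06, or 0.11 without control 2. Cd40, Nos2 and Cd80 differed by 0.13 (SE 0.08), 0.12 (SE 0.09) and 0.21 (SE 0.17). The cytokine genes Il6 and Il10 were above background on 0 arrays and Ccl3 and Ptgs2 on 2.

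Markers of other cells moved beside these genes, and their part in the results was not tested. Red blood cell markers, 7 of 9 tested with 6 higher and 1 lower, had a mean ratio of -2.91 in control 2, the lowest of all arrays. The controls ran from -2.91 to -1.98 and the aldosterone hearts from -2.01 to -1.53. The genes were uneven, with Hbb-bs at 1.24, Hbb-b2 at 1.06 and Alas2 at 0.83 but Hbb-bt at 0.06, Hba-a1 at 0.03 and Hba-a2 at -0.08. Hbb-bt, Hba-a1 and Hba-a2 each had an aldosterone mean of -1.30. Whether spots of these bright genes were saturated was not examined, which limits their differences and the summed signal. The summed Cy5 signal of the red blood cell markers over background was not scaled between arrays. It was 173300 units in control 2, up to 246600 in controls and 255900 to 279900 with aldosterone. Fibroblast markers, 7 of 7 tested and 7 higher, had a mean ratio of 0.64 in control 2 and at most 0.34 in the other controls, against 0.37 to 0.90 with aldosterone. Their summed signal was 49040 to 79000 units in controls and 70240 to 93370 with aldosterone. Neutrophil markers, 10 of 13 tested with Mmp8 and Mmp9 above background on 0 arrays, had mean ratios of -4.38 to -4.08 in controls and -4.26 to -3.84 with aldosterone. Their summed signal was 56640 to 68630 units and 54980 to 69340 units. At an unadjusted p under 0.05 in limma, 5 of 7 fibroblast and 4 of 7 red blood cell markers were higher and 0 lower. Of 10 neutrophil markers 0 were higher and 1 lower at that p. Among all genes 4.17% were higher and 2.03% lower, and 0 of the 27 monocyte and macrophage genes reached it.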

How the data were processed

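Intensity values of 9 arrays with 2 colours came from the deposited scanner output. Per the file headers, Feature Extraction 10.7.3.1 made it. For 10 hearts the authors deposited log2 ratios, 1 per probe. For the 9 arrays it matched the scanner's log10 ratio column, per the file headers Cy5 over Cy3, after conversion to log2 (Pearson r 0.996 to 1.00 over probes). Its column medians lay between -0.01 and 0.12, so scale and direction were known and no centring was seen. Median spot signals were used, and 26581 of 39429 probes were named through RefSeq records (GRCm38.p6).

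Where a spot's background lay over 20 units away from its array's median, up to 11739.5 units on control 1, that median replaced it. Normexp (offset 50) and loess within arrays followed (R 4.3.3, limma 3.58.1), with control spots at weight 0 and then left out, as were 1667 outlier spots. Spots of a probe were averaged, probes well above background in Cy5 on at least 4 arrays kept (26877), and the brightest probe per gene used. A limma model compared 4 aldosterone with 5 control arrays. Tests were two-sided, and p-values were adjusted over 22016 genes by the Benjamini-Hochberg method, with a threshold of 0.05. The fit was tested on simulated data. Members, lists, the background step and tests were chosen with earlier results of these data known. Each member was named. Per-heart values were given for genes at an unadjusted p under 0.05 in either source, the 4 of largest difference, Csf1r, Adgre1, Cd68 (not matched), Ptprc, Ccr2 and the resident markers, and per other list the 3 genes of smallest p, except that some items are not reported here. Other ways of background correction, normalization, filtering, probe choice, blocking and weighting were run, and each array was left out in turn. Arrays are few, which limits precision.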

Additional observations from a re-analysis of the deposited data

Results flagged for a closer look

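Of 108 sets of control or aldosterone values examined for the 27 genes in both sources, 4 held a heart far from the rest of its group, where chance flags about 1 in 20. Trem2 in control 2 was -0.13 on the arrays, where the next control was -0.59, and 0.22 in the value table, where the next was -0.40. Itgam in aldosterone 1 was 0.83 on the arrays, where the next aldosterone heart was 0.96, and 0.98 in the value table, where the next was 1.09.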

How the results depend on the processing

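No member passed an adjusted p under 0.05 in limma in any of the 30 alternatives, among which Ccr2 and Cd53 were tested in 29, and the lowest adjusted p was 0.228, for C1qb. Adgre1 stayed above 0 in 30 of 30, from 0.30 to 0.71, C1qb in 30 of 30, from 0.19 to 0.54, and Lyve1 in 30 of 30, from 0.04 to 0.30, while Lyz2 and Ptprc changed sign in 6, Ccr2 in 5 and Cd163 in 2. The median of the members ran from 0.03 to 0.39 and that of the resident markers from 0.09 to 0.35, above 0 in each. Leaving out 1 array gave 0.03 to 0.28 for the members, 0.09 to 0.24 for the resident markers and -0.10 to 0.09 for Ccr2. In the value table without control 2, chosen after seeing the data, the members' median was 0.39, the resident median 0.35 and Ccr2 0.39. Over all genes the count of calls was 0 on the 9 arrays, with 1365 at an unadjusted p under 0.05. It was 37 in the value table of 10 hearts, 13 in that table for the same 9 hearts, 11 with Agilent log ratios, 3 with array weights, 4 in the value table without control 2 and 0 to 11 on leaving out 1 array, with 11 without control 5, 7 without control 3, 2 without control 4 and 1 without aldosterone 1. With the replicate block 2 genes were called, none a member, and the members' median was 0.03. After group means were removed, hearts that share only a replicate number correlated at 0.06, 0.34, 0.35 and -0.34 for numbers 1, 2, 3 and 5. They were not taken as pairs. Signal over background limits Ccr2, Cd163, Cd53 and Spi1.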

Other observations

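Control 2 was the highest heart for 13.4% of all genes. Among lymphocyte, dendritic and mast cell markers it was highest for 2 of 9 T and NK cell genes tested, 0 of 5 B cell genes, 1 of 5 dendritic cell genes and 0 of 5 mast cell genes. T and NK cell genes were higher in 1 and lower in 8, with a median of -0.06, and B cell genes lower in 5 of 5, with a median of -0.07. Nkg7, a granule protein gene, differed by -0.08 (SE 0.06), the granzyme gene Gzma by -0.35 (SE 0.26) and the kinase gene Lck by -0.12 (SE 0.11). The B cell genes Ms4a1 and Cd79a differed by -0.08 (SE 0.08) and -0.07 (SE 0.07). In the value table Ms4a1 differed by -0.35 (SE 0.10, unadjusted p = 0.00461, adjusted p = 0.321 in limma) and Cd79a by -0.11 (SE 0.14).

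Among dendritic cell genes, Siglech, a receptor gene of plasmacytoid cells, differed by -0.28 (SE 0.11), Flt3 by -0.11 (SE 0.08) and the chemokine receptor gene Ccr7 by 0.07 (SE 0.07). Among mast cell genes, the growth factor receptor gene Kit differed by 0.18 (SE 0.08) and the protease genes Tpsb2 and Mcpt4 by -0.12 (SE 0.08) and -0.21 (SE 0.15). Endothelial genes were higher in 3 of 7, with a median of -0.02, with Cdh5 at 0.15 (SE 0.09), Emcn at -0.09 (SE 0.06) and Fabp4 at 0.16 (SE 0.12). Cardiomyocyte genes were higher in 3 of 8, with Myl2 at -0.13 (SE 0.10), Myh6 at -0.14 (SE 0.11) and Ryr2 at 0.35 (SE 0.31). Among fibroblast genes, Pdgfra differed by 0.28 (SE 0.07), Lum by 0.52 (SE 0.15) and Col1a1 by 0.59 (SE 0.23). Among red blood cell genes, Alas2 differed by 0.83 (SE 0.21), Hbb-b2 by 1.06 (SE 0.28) and Hbb-bs by 1.24 (SE 0.37). Among neutrophil genes, Csf3r differed by -0.16 (SE 0.07), S100a8 by 0.45 (SE 0.22) and Retnlg by 0.26 (SE 0.14). None of these passed adjustment over all genes in limma.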
